A study of Mus musculus with 2 samples.

Results

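The cells described here were macrophages of mouse brown adipose tissue (BAT) that carried both complement C1q and MHC class II transcripts but fell below the marker limits of the tissue's named macrophage subsets. They numbered 189 of the 4295 leukocytes kept from 2 single-cell libraries, 42 of 2279 in the control library and 147 of 2016 in the Adipo Δ/Δ library. Captured transcripts were counted by unique molecular identifiers (UMIs), and a barcode was kept if it showed 200 genes or more and no more than 10% of its UMIs were mitochondrial, which left these cells of 2597 and 2381 barcodes. Members were chosen by their measured UMIs. A member had at least 2 UMIs of C1qa, C1qb and C1qc together and at least 10 of H2-Aa, H2-Ab1, H2-Eb1 and Cd74 together. It had at most 1 UMI of the resident macrophage markers Folr2, Lyve1 and Cd209f, at most 1 of the matrix macrophage markers Ecm1, Fcrls and Cd226, and at most 3 of the lipid-associated markers Gpnmb and Trem2. It also had at most 1 UMI of the dendritic cell markers Cd209a and Flt3, and 0 of the lymphocyte markers Cd79a and Cd3e. The levels of these rule genes are given as description only.

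Both libraries came from C57Bl/6 AdipoQ-CreERT2 ATGLfl/fl males, 16 weeks old by the labels and younger by the study's own schedule, so the control mice carried the floxed allele and the inducible recombinase too. The Adiponectin promoter drives this tamoxifen-inducible Cre in adipocytes, and ATGL (Pnpla2) is the lipase that starts triglyceride breakdown there. Control mice received vehicle, and Adipo Δ/Δ mice received 200 µL of tamoxifen at 10 mg/ml by intraperitoneal injection, every 2 days for 1 week and followed by 2 weeks of rest. Living CD45+ cells were sorted from collagenase-digested BAT, so the recombined adipocytes themselves were not in the libraries and the deletion could not be checked in them. Each condition was 1 library, the number of mice behind each was not given in the sources used here, and tamoxifen itself, gene loss and library cannot be told apart. All values below therefore carry intervals for counting error only, without a p-value.

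C1q is the recognition molecule of the classical complement pathway, and tissue macrophages are its main source. MHC class II presents peptides from ingested material to CD4+ T cells, with the invariant chain Cd74 guiding the new complexes to endosomes and the transactivator Ciita switching the genes on. In adipose tissue, Ly6C+ blood monocytes enter, lose Ly6c2 and gain C1q and class II transcripts as they become macrophages, while long-lived resident macrophages carry Lyve1 and Folr2.

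The promoters of the 2 gene sets that define these cells are printed here because the cells were picked for carrying both. Each run is the 250 bases before the transcription start on the gene's own strand, 5′ to 3′, from RefSeq on GRCm38.p6. Capitals mark CTGATTGG, the CCAAT-containing Y box known from class II promoters, in H2-Aa and H2-Eb1. In C1qb and C1qc they mark GAGGAA, a core bound by ETS factors such as PU.1, or its reverse complement. Both strands were searched, and the motifs share no bases.
H2-Aa, chr17:34287824-34288073, minus strand: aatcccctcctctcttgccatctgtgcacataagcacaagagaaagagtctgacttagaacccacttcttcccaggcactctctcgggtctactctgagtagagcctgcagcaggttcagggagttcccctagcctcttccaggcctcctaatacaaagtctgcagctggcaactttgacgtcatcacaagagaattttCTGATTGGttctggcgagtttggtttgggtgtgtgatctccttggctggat
H2-Eb1, chr17:34305617-34305866, plus strand: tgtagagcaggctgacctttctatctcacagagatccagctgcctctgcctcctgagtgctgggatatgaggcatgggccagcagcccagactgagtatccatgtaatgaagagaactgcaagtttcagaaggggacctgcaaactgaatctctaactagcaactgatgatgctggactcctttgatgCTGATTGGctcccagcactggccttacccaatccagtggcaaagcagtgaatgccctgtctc
C1qb, chr4:136886201-136886450, minus strand: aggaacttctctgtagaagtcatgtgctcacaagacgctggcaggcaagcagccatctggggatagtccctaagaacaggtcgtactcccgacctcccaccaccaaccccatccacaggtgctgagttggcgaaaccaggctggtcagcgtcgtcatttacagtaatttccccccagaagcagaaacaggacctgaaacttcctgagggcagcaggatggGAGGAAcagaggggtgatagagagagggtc
C1qc, chr4:136892915-136893164, minus strand: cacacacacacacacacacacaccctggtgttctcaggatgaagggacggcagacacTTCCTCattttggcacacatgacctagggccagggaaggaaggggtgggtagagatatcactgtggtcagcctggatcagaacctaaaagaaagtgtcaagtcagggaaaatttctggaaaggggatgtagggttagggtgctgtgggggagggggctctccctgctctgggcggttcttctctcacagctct

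The Y box began 51 bases before the start of H2-Aa and 62 before that of H2-Eb1, and 3.83% of 32851 RefSeq promoters of the same length held it. The first GAGGAA lay 30 bases before the start of C1qb and 193 before that of C1qc, where the printed strand reads TTCCTC, and 23.3% of all promoters held that shorter motif. Among other class II pathway genes searched, the promoters of H2-DMa, H2-DMb1 and H2-DMb2 held no CTGATTGG, and that of H2-DMb1 held GAGGAA. A match of letters is a description and not a site of binding. H2-Ab1, C1qa and Ciita were not matched in the promoter table.

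A first question was how sharply the rule separated the cells. C1qa, C1qb and C1qc together ranged from 2 to 82 UMIs a cell in control, with a median of 13, and from 2 to 235 with a median of 4 in Adipo Δ/Δ. Class II transcripts ranged from 10 to 500 UMIs with a median of 61 in control and from 10 to 733 with a median of 44 in Adipo Δ/Δ. The ranges of the 2 libraries overlapped, and the Adipo Δ/Δ median was the lower for both sums. C1qb was detected in 92.9% of control and 87.1% of Adipo Δ/Δ members, C1qa in 85.7% and 76.2%, and C1qc in 90.5% and 70.1%.

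**Figure D1:**
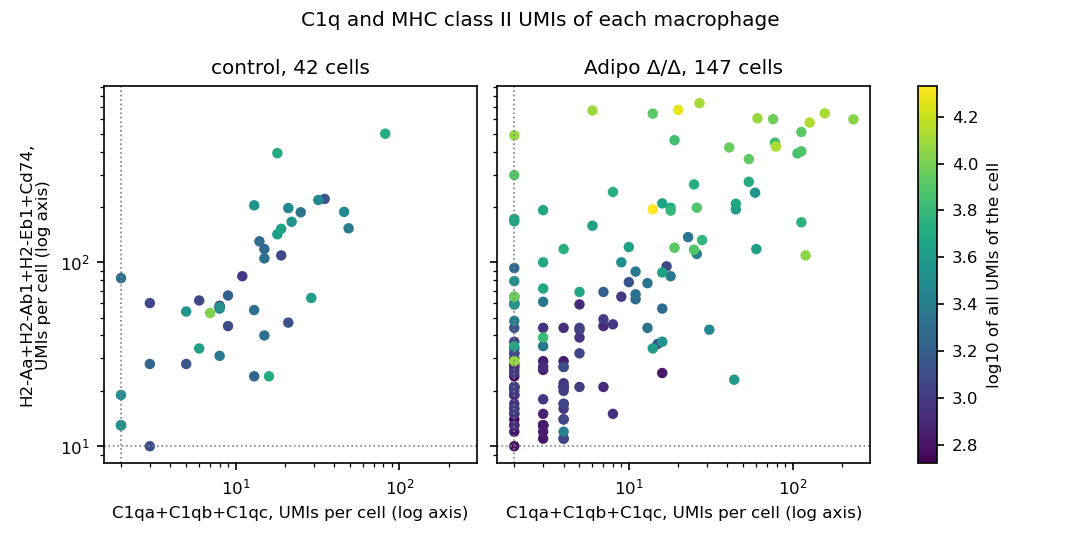
C1q UMIs (x axis, C1qa+C1qb+C1qc) against MHC class II UMIs (y axis, H2-Aa+H2-Ab1+H2-Eb1+Cd74) in each of the 42 control and 147 Adipo Δ/Δ member cells, on log axes, coloured by the cell's total UMIs; dotted lines mark the limits of 2 and 10 UMIs. Points crowd against the C1q limit in the Adipo Δ/Δ library, where 42 cells hold exactly 2 UMIs, and the cells with most C1q are among the deeper ones.

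At the C1q limit, 4 control and 42 Adipo Δ/Δ members held exactly 2 UMIs, and 11 control and 66 Adipo Δ/Δ cells that met every other clause were left outside with 1 UMI. At the class II limit, 3 and 16 members held 10 to 14 UMIs, and 5 and 15 cells were left outside with 5 to 9. The members at exactly 2 C1q UMIs had median depths of 2645.5 (control) and 1002.5 (Adipo Δ/Δ) UMIs.

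Most C1q and class II cells were not members. Of 93 control and 363 Adipo Δ/Δ cells that met both lower limits, 51 and 216 failed an upper limit, so members made up 45.2% and 40.5% of such cells. The matrix markers removed 32 control and 139 Adipo Δ/Δ cells, the resident markers 28 and 85, the lipid-associated markers 3 and 62, the dendritic markers 3 and 15 and the lymphocyte markers 4 and 13, with 18 and 82 cells failing more than 1 clause. Because the upper limits are in raw UMIs, shallow cells pass them more easily. Members held a median of 2106.5 UMIs and 884 genes in control and 1621 UMIs and 775 genes in Adipo Δ/Δ, against medians of 3678 and 3942 UMIs over all kept cells and 3273 and 6126.5 over cells with at least 2 resident marker UMIs.

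The share of these macrophages was larger in the Adipo Δ/Δ library. They made up 1.84% (95% exact binomial interval 1.33 to 2.48) of control and 7.29% (6.19 to 8.51) of Adipo Δ/Δ leukocytes, a ratio of 3.96 (2.79 to 5.72). With every cell thinned to 2000 UMIs before the rule was applied, and shallower cells left out, the shares were 29 of 1659 (1.75%) and 112 of 1462 (7.66%). Only 23 control and 70 Adipo Δ/Δ members held at least 2000 UMIs. The thinned sets therefore include cells that failed an upper limit at full depth, and they are not the same cells. The Ly6c2+ Vcan+ monocytes, by contrast, numbered 135 in control and 38 in Adipo Δ/Δ, a share ratio of 0.318 (0.216 to 0.459). T cells held a like share in both libraries (ratio 0.980, 0.793 to 1.21), B cells a smaller one in Adipo Δ/Δ (0.378, 0.293 to 0.484), and resident-marker C1q macrophages a larger one (3.56, 2.39 to 5.44). A share of sorted cells does not give a number of cells in the tissue. No barcode of a member was among the 4 that both libraries share.

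C1q transcripts were also found in lymphocytes. At least 2 C1q UMIs, the rule's limit, were found in 1.03% of control and 4.73% of Adipo Δ/Δ T cells, which do not make C1q, and in 0 of 260 control B cells, which by the limit of 3 cells allows a share of up to 1.15%, and 4.60% of Adipo Δ/Δ B cells. The T cells had median depths of 5394 and 7222 UMIs, deeper than the members. At least 10 C1q UMIs were held by 23 control and 51 Adipo Δ/Δ members, which is 1.01% and 2.53% of kept cells and a ratio of 2.51. The ratio was 2.77 under a stricter limit of 2% mitochondrial UMIs, which 18 control and 34 Adipo Δ/Δ members met. The part of free RNA or of mixed cells in the difference was not tested.

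The cells were next described with genes that the rule did not use. The comparison was with Ly6c2+ Vcan+ monocytes, 135 control and 38 Adipo Δ/Δ cells with at least 1 UMI of each gene, at least 3 of both together and 0 of C1q. Levels are in CPM, a gene's UMIs summed over the cells of a group and scaled to a fixed total of all UMIs, with exact Poisson 95% intervals, and where a pair of levels is given the control library comes first. Lgmn, the lysosomal asparaginyl endopeptidase, stood at 579 CPM (448 to 737) in control members and, in Adipo Δ/Δ members, at 725 CPM (654 to 801), against 73.6 and 102 CPM in monocytes. Aif1, the actin-binding protein Iba1 of macrophages, stood at 483 CPM (364 to 628) and 549 CPM (487 to 616), against 148 and 217 CPM. Both genes were higher in members than in monocytes of both libraries, with intervals apart. Lgmn and Aif1 were named as markers of these cells with earlier results of these data known. The monocytes were chosen for 0 C1q UMIs, so the difference is a description and not a check of identity.

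The list of dendritic genes outside the rule summed lower in members than in dendritic cells, and its member sum was mostly Ccnd1 and Itgax. In a list of 10 dendritic genes, Cd209a and Flt3 were capped by the rule and chose the dendritic cells, which had at least 2 UMIs of both together and 0 of C1q. The other 8 genes summed to 193 and 226 CPM in members, 18.2 and 34.1 CPM in monocytes, 319.9 and 226 CPM in resident-marker macrophages and 483 and 594 CPM in dendritic cells. Zbtb46, a transcription factor of conventional dendritic cells, had 0 and 2 UMIs in members, and Xcr1 and Clec9a of the cross-presenting subset had 0 in both. The genes that made up most of the member sum were Ccnd1, a cyclin, at 123 and 115 CPM, and the integrin Itgax at 43.9 and 95.6 CPM. Monocyte transcripts were present as well. Of the 42 and 147 members, 71.4% and 69.4% had a UMI of at least 1 of 7 macrophage and at least 1 of 8 monocyte genes. Ly6c2, the antigen that marks inflammatory monocytes, was detected in 16.7% of control and 7.48% of Adipo Δ/Δ members and in 31.3% and 52.7% of T cells, some of which express it, so its share in members was not above that level. Members with Ccr2, the receptor for monocyte entry, numbered 23 and 94, those with Mrc1, the mannose receptor of tissue macrophages, 23 and 70, and those with both 15 and 50. In T cells Ccr2 was detected in 11.3% and 30.8% and Mrc1 in 0 of 195 control cells, which by the same limit of 3 cells allows up to 1.54%, and 4.14% of Adipo Δ/Δ cells, against 54.8% and 63.9% and 54.8% and 47.6% of members.

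**Figure D2:**
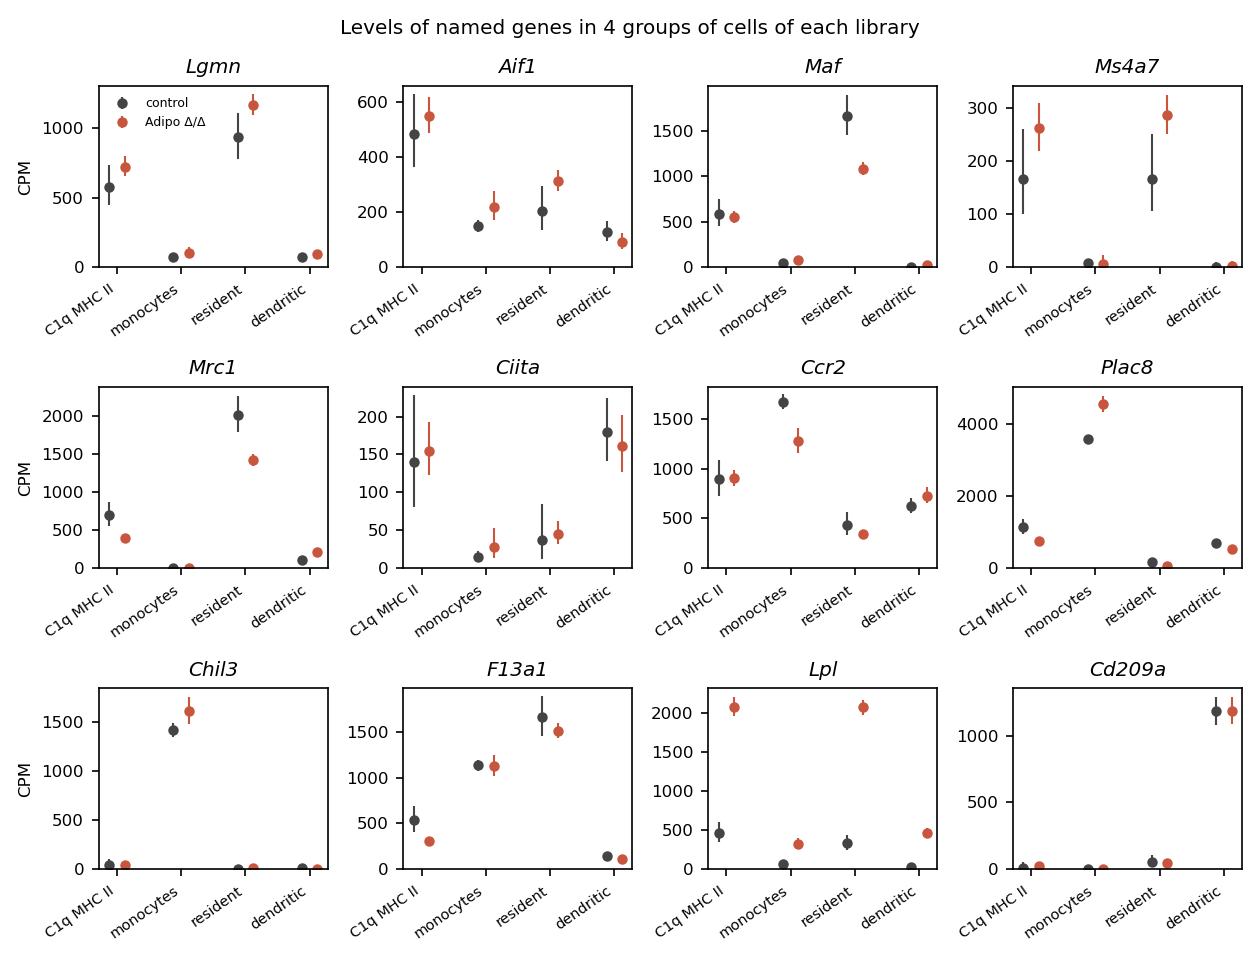
Levels of 12 genes in CPM (y axis) in the members, Ly6c2+ Vcan+ monocytes, resident-marker macrophages and dendritic cells of the control and Adipo Δ/Δ libraries, with bars for exact Poisson 95% intervals. Lgmn, Aif1, Maf and Ms4a7 are higher in members than in monocytes of both libraries, and Plac8, Chil3 and F13a1 are lower.

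Against the monocytes of the same library, 71 of 1276 genes with a mean of at least 100 CPM were at least 2-fold higher in members of both libraries (5.56%) and 81 were at least 2-fold lower in both (6.35%), 152 in all (11.9%). The median gene stood at a log2 ratio of -0.28 in control and -0.20 in Adipo Δ/Δ. Ly6c2, Vcan, the C1q genes and, for members only, the class II genes selected the 2 groups, so their differences are set by the rule. Genes that vary together with these are expected to differ as well, so the comparison describes the groups. The monocytes were much deeper, with medians of 9121 and 8817 UMIs, and the part of depth in the other differences was not tested.

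The 10 genes furthest above monocytes included receptors and secreted products of tissue macrophages. Mrc1 stood at 702 CPM in control members and 392 CPM in Adipo Δ/Δ members against 2.48 and 0 CPM in monocytes, and Mgl2, a galactose-type lectin of alternatively activated macrophages, stood at 649.6 and 426 CPM against 0.827 and 0 CPM. Pf4, a platelet-factor chemokine also made by macrophages, reached 1729 and 834 CPM against 0.827 and 12.4 CPM. Each was close to absent from the monocytes of both libraries. Retnla, the interleukin-4 response gene for RELMα, stood at 1159 and 1704 CPM against 21.5 and 65.2 CPM. Other cells carried Retnla too, at 21.8 and 438 CPM in T cells, 38.4 and 1144 CPM in B cells and 48.5 and 241 CPM in neutrophils. In control, 16 of the 42 members had it, and 1 cell held 37.9% of its UMIs. The part of free RNA in its member level was not tested. The endocytic adaptor Dab2 stood at 448 and 335 CPM against 0 and 6.20 CPM, and the tetraspanin Cd81 at 483 and 409 CPM against 3.31 and 6.20 CPM. Ms4a7, a membrane protein of mature macrophages, stood at 167 and 262 CPM against 6.62 and 6.20 CPM. Pltp, the phospholipid transfer protein, Dhrs3, a retinal reductase, and Basp1 completed the list, with 325 and 470.4 CPM, 237 and 179.7 CPM and 132 and 293 CPM in members against 20.7 and 15.5 CPM, 15.7 and 3.10 CPM and 0.827 and 18.6 CPM in monocytes.

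The 10 genes furthest below monocytes included granule and acute-phase genes of the monocyte state. Chil3, the chitinase-like protein Ym1, stood at 43.9 and 40.2 CPM in members against 1417 and 1613 CPM in monocytes. Hp, haptoglobin, stood at 123 and 74.6 CPM against 872 and 804 CPM, and C3, the central complement component, at 35.1 and 45.9 CPM against 422 and 487 CPM. Mmp8, neutrophil collagenase, stood at 17.6 and 13.4 CPM against 198 and 171 CPM, and the interferon-induced membrane protein Ifitm6 at 123 and 122 CPM against 611 and 539.8 CPM. The members lay below the monocytes of both libraries for all of these. Smpdl3a, Prdx5 and Napsa were also in the list, at 114 and 130.03 CPM, 342 and 321 CPM and 87.8 and 134 CPM in members and 613 and 496 CPM, 1300.04 and 1126 CPM and 493 and 490.2 CPM in monocytes, and the remaining 2 were Ly6c2 and Vcan themselves.

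**Figure D3:**
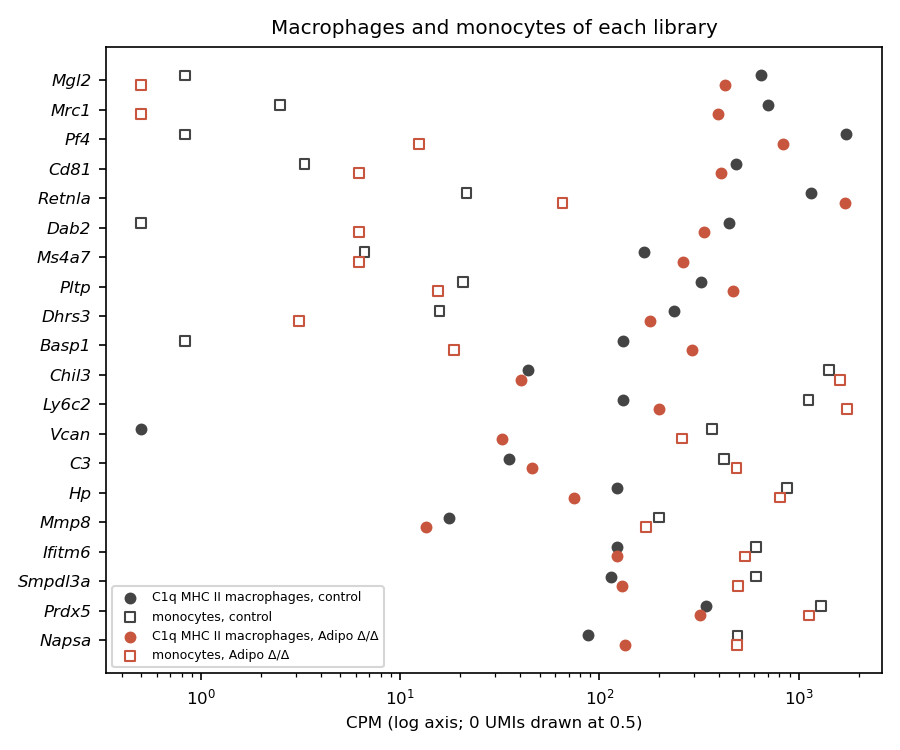
Levels in CPM (log x axis) of the 10 genes furthest above and the 10 furthest below the Ly6c2+ Vcan+ monocytes, in members and monocytes of each library; a group with 0 UMIs is drawn at 0.5 CPM. Mgl2 and Mrc1 are at or below 2.48 CPM in the monocytes of both libraries, and in each gene both libraries point the same way.

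Lists of genes were then counted by role. Of the macrophage core list, 11 genes were measured against monocytes, 7 were 2-fold higher in both libraries and 0 lower, and the list summed to 8006 and 7056 CPM in members against 3451 and 3776 CPM in monocytes. Csf1r, the receptor for the macrophage growth factor CSF1, was not among the 7, with 904 and 600.4 CPM in members and 483 and 475 CPM in monocytes, and Mertk, a receptor for dying cells, had only 2 and 13 UMIs in members. Of 14 measured monocyte genes, 12 were lower in both libraries and 0 higher, yet the list still summed to 17863 and 19365 CPM in members against 51192 and 50774 CPM in monocytes. Plac8 stood at 1141 and 740.02 CPM in members and 3577 and 4542 CPM in monocytes, and Lyz2, lysozyme, at 11596 and 12039 CPM and 29824 and 28105 CPM.

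Antigen presentation beyond the rule genes was measured in 4 genes, of which 2 were 2-fold higher in members of both libraries and 1 lower. H2-DMa and H2-DMb1, the chaperone that loads peptide onto class II, stood at 685 and 551 CPM and at 579 and 509 CPM, against 221 and 257 CPM and 86.8 and 158 CPM in monocytes. Ciita itself stood at 140.4 and 155 CPM in members, 14.1 and 27.9 CPM in monocytes and 179 and 162 CPM in dendritic cells, so members were near the dendritic level. Members and dendritic cells were both chosen with at least 10 class II UMIs, and monocytes had no such limit. Genes that go with class II are therefore expected to differ from monocytes. Cd83, which keeps class II at the surface, stood at 132 and 142 CPM against 2.48 and 12.4 CPM. Ifi30, the lysosomal thiol reductase, went the other way with 334 and 375 CPM in members and 764 and 918 CPM in monocytes. Ciita and Cd83 had mean levels below the filter for the 2-fold counts, so they were not among the 4 genes.

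Lysosomal proteases and their partners were measured in 16 genes, of which 4 were 2-fold higher in members of both libraries and 0 lower. Ctsb, a cysteine cathepsin, stood at 1922 and 2188 CPM against 791 and 1002 CPM in monocytes, and Cd63, a lysosomal tetraspanin, at 325 and 411 CPM against 3.31 and 46.5 CPM. Among complement genes outside the rule, C3ar1, the C3a receptor, stood at 167 and 143 CPM against 2.48 and 0 CPM. Its mean level was below the filter for the 2-fold counts, so C3ar1 was not counted. Of 6 other complement genes outside the rule that passed the filter, 1 was higher and 1 lower in both libraries. Of the transcription factors, Maf, a macrophage self-renewal and identity factor, stood at 588 and 551 CPM against 43.0 and 77.6 CPM, while Cebpb, a factor of monocyte survival, stood at 342 and 516 CPM against 1064 and 1145 CPM.

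The members were not uniform within a library. They were split by C1q UMIs into 2 to 3, 4 to 9 and at least 10, giving 7, 12 and 23 control and 60, 36 and 51 Adipo Δ/Δ cells, so 54.8% of control and 34.7% of Adipo Δ/Δ members were in the highest class. Median depths were 1736, 1990 and 2416 UMIs for the control classes and 969.5, 1027 and 5167 for the Adipo Δ/Δ classes, so the classes differ in depth as well, and the lowest control class rests on 14365 UMIs in all.

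Few members carried Ly6c2, and its sums rested on single cells. From the lowest to the highest class it stood at 487, 174 and 30.7 CPM in control and 512, 301 and 52.2 CPM in Adipo Δ/Δ. In the lowest Adipo Δ/Δ class, 2 of the 60 cells held 97.0% of the 67 UMIs and 56 cells had 0, and in the middle class 1 cell held 19 of 20 UMIs. In the lowest control class, all 7 UMIs lay in 2 cells that also carried NK or neutrophil transcripts. No order of Ly6c2 over the classes is therefore read from these sums.

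Plac8 and Fn1 were concentrated as well. Plac8 stood at 487, 2816 and 399 CPM in control and 1949.97, 708 and 261 CPM in Adipo Δ/Δ, with 44 of 47 UMIs of the middle Adipo Δ/Δ class in 1 cell and 11 of 60 cells of the lowest class carrying it. Fn1, fibronectin, which monocytes and matrix macrophages make, stood at 139, 581 and 215 CPM and 1499, 1340.4 and 332 CPM. In Adipo Δ/Δ it was carried by 23 of 60 cells of the lowest class and 18 of 51 of the highest, and 57 of the 89 UMIs of the middle class lay in 1 cell.

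Tissue macrophage transcripts were carried by many cells of the highest C1q class. Mrc1 stood at 209, 116 and 1121 CPM in control and 184, 648 and 424 CPM in Adipo Δ/Δ from the lowest to the highest class, and Mgl2 at 69.6, 116 and 1059.8 CPM and 107, 331 and 574 CPM. Maf stood at 69.6, 145 and 937 CPM in control and 214, 678 and 659.9 CPM in Adipo Δ/Δ. Pf4 stood at 348, 319 and 2780.2 CPM and 107, 633 and 1166 CPM. In control each of the 4 was highest in the cells with at least 10 C1q UMIs, and in Adipo Δ/Δ each was lowest in the cells with 2 to 3, while Mrc1 and Maf were no higher at 10 and over than in the middle class. Mrc1 was carried by 18 of the 23 control and 38 of the 51 Adipo Δ/Δ cells of the highest class, and by 16 of the 60 Adipo Δ/Δ cells of the lowest, which are also the shallower ones. H2-Ab1, which the rule used only for its sum, stood at 3272, 2874 and 10460.2 CPM in control and 4022, 5512 and 7017 CPM in Adipo Δ/Δ. Ccr2 had no such order, with 278, 1132 and 906 CPM in control and 879, 1099 and 878 CPM in Adipo Δ/Δ.

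**Figure D4:**
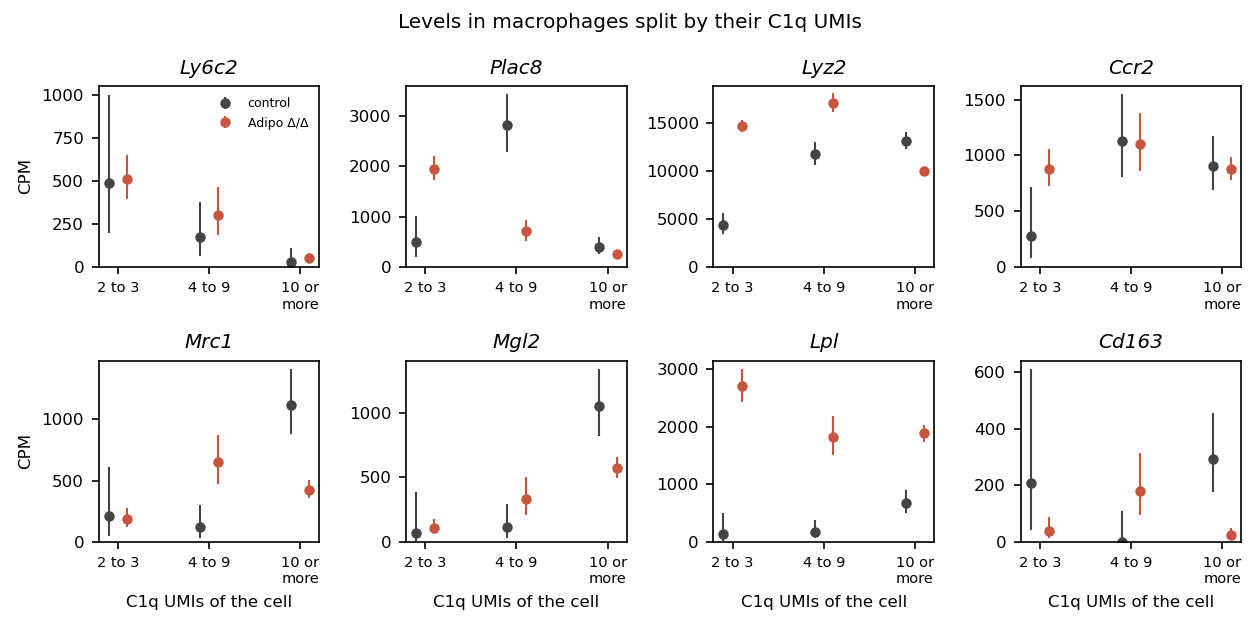
Levels in CPM (y axis) of 8 genes in members with 2 to 3, 4 to 9 and at least 10 C1q UMIs (x axis) in each library, with exact Poisson 95% intervals. Mgl2 is highest in the cells with most C1q of both libraries, Lpl is higher in Adipo Δ/Δ in every class, and the Ly6c2 points of the lower classes rest on 4 cells or fewer each.

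The 2 libraries were then compared within the members, that is, between vehicle-treated and tamoxifen-treated mice. Of 1208 genes with a mean of at least 100 CPM, 58 were at least 2-fold higher in Adipo Δ/Δ (4.80%) and 40 at least 2-fold lower (3.31%), 98 in all (8.11%), around a median log2 ratio of 0.11. With median-of-ratios scaling the split was 38 higher and 52 lower, and with scaling that leaves out Gm42418 and Lars2 it was 43 and 69. Gm42418, a locus that overlaps ribosomal RNA, took 14.8% of control and 7.43% of Adipo Δ/Δ member UMIs, and its share was lower in Adipo Δ/Δ in monocytes (8.12% and 4.22%) and T cells (8.93% and 4.27%) too.

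Lpl, the lipoprotein lipase that releases fatty acids from triglyceride-rich particles (chr8:68880491-68907448 on mm10), had the highest Adipo Δ/Δ level among the genes that were 2-fold higher there. It stood at 456 CPM (341 to 599) in control members and, in Adipo Δ/Δ members, at 2079 CPM (1957 to 2206), a ratio of 4.55 (3.45 to 6.14). In monocytes it stood at 68.6 and 326 CPM, a ratio of 4.75 (3.52 to 6.41), and in resident-marker macrophages at 327 and 2068 CPM, so those groups were higher in Adipo Δ/Δ as well. Lpl was detected in 40.5% (25.6 to 56.7) of control and 80.3% (72.9 to 86.4) of Adipo Δ/Δ members, against 0.513% and 11.2% of the deeper T cells, and after thinning to 2000 UMIs in 12 of 23 (52.2%) and 52 of 70 (74.3%) of the members with that depth. Cells that are not macrophages carried Lpl too, at 0.840 and 80.9 CPM in T cells, 6.86 and 349 CPM in B cells and 7.47 and 435 CPM in neutrophils, each lower than the members and each higher in Adipo Δ/Δ. The part of free RNA or mixed cells in the member level was not tested. The member ratio was 2.78 in cells with at least 10 C1q UMIs and 7.39 under the 2% mitochondrial limit. By C1q class Lpl stood at 2699, 1822 and 1882 CPM in Adipo Δ/Δ and 139, 174 and 676 CPM in control, higher in Adipo Δ/Δ in every class.

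Cdkn1a, which encodes the cell-cycle inhibitor p21, had 2 UMIs in 1 control cell and 123 UMIs in 50 Adipo Δ/Δ cells. That is 17.6 CPM in control members and 235 CPM in Adipo Δ/Δ members, a ratio of 13.4 (3.63 to 112), and 18.2 and 31.0 CPM in monocytes. Cdkn1a was also higher in Adipo Δ/Δ in resident-marker macrophages (14.5 and 72.4 CPM), dendritic cells (14.4 and 70.2 CPM) and neutrophils (1.87 and 28.7 CPM). The control levels of Cdkn1a in resident-marker macrophages and neutrophils rest on 2 UMIs each. It was detected in 2.38% (0.0603 to 12.6) of control and 34.0% (26.4 to 42.3) of Adipo Δ/Δ members, against 1.03% and 2.96% of T cells. In cells with at least 10 C1q UMIs control had 0 Cdkn1a UMIs, and with control set to the floor of 3 UMIs the ratio was 4.93. The part of free RNA was not tested. Il1rn, the antagonist of the interleukin-1 receptor, had 3 and 146 UMIs, which is 26.3 CPM in control members and 279 CPM in Adipo Δ/Δ members and a ratio of 10.6 (3.56 to 52.0). It was seen in 28 Adipo Δ/Δ members, and 1 of them of 21415 UMIs held 29.5% of its UMIs. That cell also held 81.2% of the S100a8 UMIs of Adipo Δ/Δ members, and in control 2 of the 3 Il1rn UMIs were in 1 cell that carried neutrophil transcripts. Neutrophils themselves had 154 and 387 CPM of Il1rn and monocytes 10.8 and 93.1 CPM. Without the cell of neutrophil transcripts the control level of Il1rn rests on 1 UMI, and with the deepest cell of each library left out the ratio was 7.07. Over all alternatives the Il1rn ratio lay between 5.41 and 34.0.

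Lipid-storage and matrix genes were in the same list. Plin2, the coat protein of lipid droplets, stood at 123 CPM in control members and 384 CPM in Adipo Δ/Δ members, a ratio of 3.13 (1.82 to 5.82), and at 36.4 and 622 CPM in resident-marker macrophages. Its ratio was 0.937 under the 2% mitochondrial limit and 7.59 in cells with at least 10 C1q UMIs. Plin2 ratios in other groups were 3.93 (T cells), 5.59 (B cells), 1.78 (neutrophils), 2.77 (dendritic cells), 2.21 (monocytes) and 17.1 (resident-marker macrophages). Fn1 stood at 316 CPM in control members and 751 CPM in Adipo Δ/Δ members, a ratio of 2.38 (1.69 to 3.45), and its monocyte ratio was 1.03 (0.941 to 1.12). Its ratio in members under the 2% limit was 1.05. Mmp12, macrophage elastase, stood at 96.6 and 432 CPM, and 59.7% of its Adipo Δ/Δ UMIs were in 1 cell. Its ratio was 1.35 under the 2% and 1.35 under the 5% limit. Outside the members Mmp12 stood at 0 and 489 CPM in resident-marker macrophages, 0 and 43.4 CPM in monocytes and 0 and 73.2 CPM in T cells. The chemokine Ccl9 stood at 483 and 1105 CPM, a ratio of 2.29 (1.73 to 3.08), against 0.964 (0.819 to 1.13) in monocytes. Its member ratio was 1.18 under the 2% limit. Ccl9 was also higher in Adipo Δ/Δ T cells (ratio 3.91), B cells (5.52) and neutrophils (8.65). In resident-marker macrophages and dendritic cells its ratios were 1.70 and 1.28. Fn1 ratios were, in the same order, 2.49, 5.45, 4.02, 1.26 and 2.93. The part of free RNA or mixed cells in these differences was not tested.

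The other 5 of the 12 genes with the firmest higher levels had mixed roles. Atp6v1b2, a subunit of the lysosomal proton pump, stood at 61.4 and 304 CPM, and Capg, an actin-capping protein, at 149 and 415 CPM. Hspa5, the endoplasmic reticulum chaperone BiP, stood at 237 and 576 CPM, a ratio of 2.43 (1.64 to 3.75). Other groups had Hspa5 ratios of 2.28 (T cells), 2.02 (B cells), 2.08 (dendritic cells) and 1.88 (neutrophils). Monocytes and resident-marker macrophages had 0.892 and 1.26. Bcl2a1b, an anti-apoptotic gene with near-identical copies, stood at 35.1 and 289 CPM in members and 20.1 and 118 CPM in T cells, with the Adipo Δ/Δ library higher in both, and its member ratio moved from 8.22 to 2.95 with cells weighted equally. Aprt, which salvages adenine, stood at 61.4 and 260.1 CPM, and its ratio moved from 4.23 to 1.98 under the 2% limit. In T cells, B cells, neutrophils, resident-marker macrophages, dendritic cells and monocytes, Capg ratios were 2.11, 1.26, 1.66, 4.64, 2.09 and 1.07. Those of Atp6v1b2 were, in the same order, 2.21, 1.83, 1.38, 1.49, 1.33 and 1.03. Those of Aprt were 1.30, 0.548, 1.10, 4.01, 1.04 and 1.15.

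**Figure D5:**
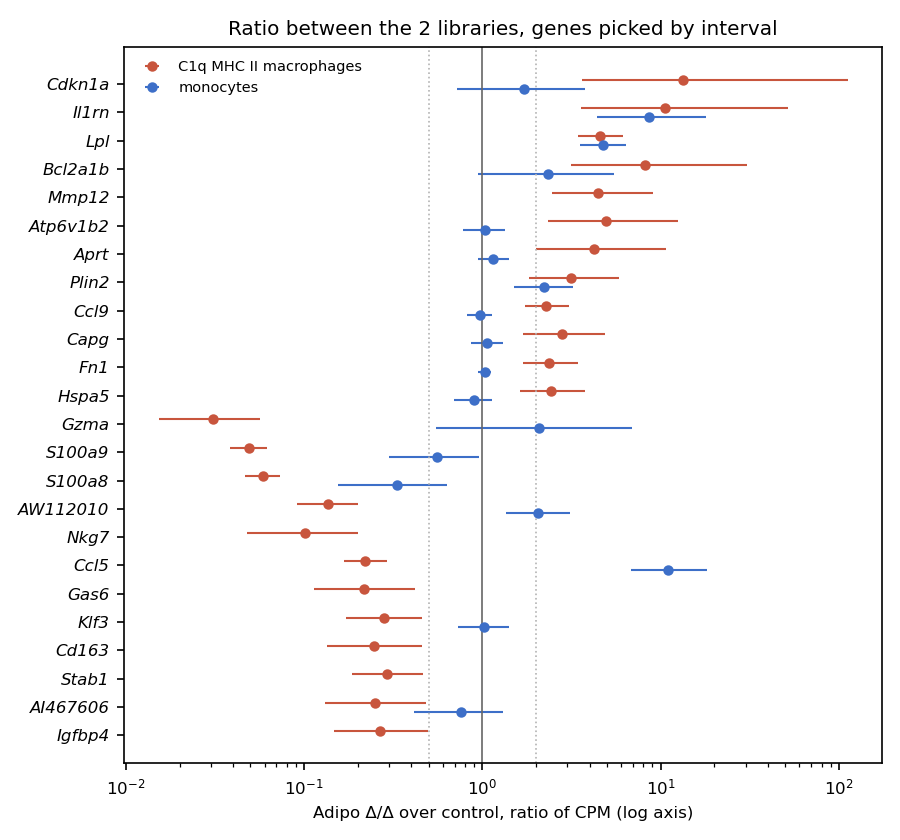
Ratio of Adipo Δ/Δ to control CPM (log x axis) in the members for the 12 genes furthest above and the 12 furthest below 1 by the interval bound, with 95% counting intervals, and in monocytes where both libraries hold at least 3 UMIs. Lpl, Cdkn1a and Il1rn lie above 1 with intervals clear of it, and Gas6, Cd163 and Stab1 lie below.

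Several of the genes with the lowest ratios were concentrated in single cells. S100a8, a calprotectin subunit of neutrophils, stood at 3274 and 193 CPM, and 80.4% of its control UMIs were in 1 cell of 3588 UMIs. That cell also held 79.0% of control S100a9 UMIs. In Adipo Δ/Δ, 81.2% and 79.3% of the S100a8 and S100a9 UMIs were in the cell of 21415 UMIs. A cell of 3244 UMIs held 65.9% of control Gzma, 75% of Nkg7, 65.4% of Ccl5 and 63.9% of AW112010, a set typical of NK cells. With the 8 control and 3 Adipo Δ/Δ members that carried such transcripts left out, Nkg7, Ccl5 and AW112010 turned to ratios of 2.25, 2.54 and 1.18, the members numbered 34 and 144, and 58 genes were higher and 43 lower. Doublets were not called, so mixed cells and free RNA cannot be told apart here.

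Scavenger receptors and a ligand for dying cells were lower in Adipo Δ/Δ as well. Cd163, the haemoglobin scavenger receptor, stood at 193 CPM in control members and 47.8 CPM in Adipo Δ/Δ members, a ratio of 0.248 (0.134 to 0.461). Stab1, a scavenger receptor for modified lipoproteins and dying cells, stood at 307 and 89.9 CPM, a ratio of 0.293 (0.185 to 0.467). Gas6, the bridge between dying cells and the TAM receptors, stood at 184 and 40.2 CPM, a ratio of 0.218 (0.113 to 0.419). All 3 were lower in Adipo Δ/Δ members, and in cells with at least 10 C1q UMIs their ratios were 0.0841, 0.234 and 0.200. Under the 2% mitochondrial limit Gas6 had a ratio of 0.208, while Cd163 and Stab1 stood at 0.937 and 0.781. The 2-fold calls of Cd163 and Stab1 therefore did not hold there. That limit left 18 control and 34 Adipo Δ/Δ members, with 51270 and 164175 UMIs in all. Whether the Cd163 and Stab1 differences lie in cells above the limit or the change comes from fewer UMIs was not tested. Klf3, a repressor of the Krüppel-like family, Igfbp4, which binds insulin-like growth factors, and AI467606 were also lower, at 281 and 78.4 CPM, 193 and 51.6 CPM and 176 and 44.0 CPM. The ratio of Klf3 moved from 0.279 to 0.600 in cells with at least 10 C1q UMIs and to 0.555 in cells with 0 UMIs of Ly6c2 and Vcan, so its 2-fold call did not hold there.

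The resident macrophage list holds these 3 genes too. Of 7 of its genes measured outside the rule, 0 were 2-fold higher and 5 lower in Adipo Δ/Δ, namely Cd163, Stab1, Gas6, Cbr2 and Pf4, with a median log2 ratio of -1.59 against 0.11 over all genes. Selenop, a secreted selenoprotein, stood at 2054 CPM in control members and 1048 CPM in Adipo Δ/Δ members, a ratio of 0.510 (0.437 to 0.597), and Pf4 at 1729 and 834 CPM, a ratio of 0.482 (0.407 to 0.573). Cbr2, a carbonyl reductase, stood at 184 and 61.2 CPM, and Mrc1 at 702 and 392 CPM with a ratio of 0.558 (0.429 to 0.732). Timd4 had 0 UMIs in both. With cells weighted equally rather than by depth the list median was -0.84. The difference varied with C1q class, since Selenop stood at 348, 522 and 3241 CPM in control and 352, 1702 and 1194 CPM in Adipo Δ/Δ, near equal in the lowest class, higher in Adipo Δ/Δ in the middle one and lower at 10 UMIs and over.

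Of 12 measured macrophage core genes 0 passed 2-fold in either direction (median log2 ratio 0.02), where 8.11% of all genes did, and the same held for 17 cathepsin and lysosome genes (0.19), 6 antigen presentation genes (-0.04) and 3 Fc receptor genes (0.08). For lists of this length a count of 0 is near the share over all genes. H2-DMa, at 685 and 551 CPM, had a ratio of 0.804 (0.624 to 1.05), and Lgmn one of 1.25 (0.961 to 1.65). Aif1 had a ratio of 1.14 (0.849 to 1.55). Among 9 monocyte genes only Fn1 passed 2-fold, with a list median of 0.44, which was 0.13 once Gm42418 and Lars2 were left out of the scaling, and Ccr2 stood at 895 and 906 CPM. Itgam, a chain of complement receptor 3, was higher with a ratio of 2.00 (1.17 to 3.68).

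Genes of the lipid-associated list outside the rule had a median log2 ratio of 0.30, with 2 of 10 higher, which were Lpl and Plin2, and 0 lower. Apoe, an apolipoprotein, stood at 3107 CPM in control members and 2205 CPM in Adipo Δ/Δ members, a ratio of 0.710 (0.629 to 0.802), and Lgals3, galectin-3, at 1352 and 2033 CPM, a ratio of 1.50 (1.27 to 1.79). Cd36, the fatty acid scavenger receptor, stood at 448 and 539 CPM in members and 4.96 and 93.1 CPM in monocytes. Spp1, osteopontin, was at 80.3 CPM in Adipo Δ/Δ and had 0 UMIs in control. The matrix list had 2 of 5 genes higher, Fn1 and Mmp12, and 0 lower, with a median of 0.56 that was 1.33 with cells weighted equally. Fatty acid oxidation genes were mostly below the level filter, and Etfb, the 1 measured, stood at 87.8 and 126 CPM.

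Regulators and signals differed in single members of each list. Of 11 transcription factors, Klf2, an anti-inflammatory factor, was lower at 509 and 191 CPM, and the list median was 0.28, with Spi1, which encodes PU.1, at 439 and 541 CPM. Pparg, the lipid-sensing nuclear receptor, had 1 control and 30 Adipo Δ/Δ UMIs. Of 6 interferon-stimulated genes, Isg15 was higher at 52.7 and 151 CPM (list median -0.16). Il1b stood at 255 and 237 CPM, with 69.0% of the control UMIs in 1 cell, and Il6, Il1a and Il12b had 0 in both. Among chemokine ligands 1 of 5 was higher, Ccl9, and 2 were lower, Ccl5 and Pf4, with Ccl6 at 992 and 1489.6 CPM.

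In iron handling, 2 of 6 genes were lower, Cd163 and the haem oxygenase Hmox1 at 246 and 117 CPM, of which 78.6% of the control UMIs were in 1 cell, and 0 were higher. The ferritin chains Fth1 and Ftl1 stood at 5442 and 7905 CPM and at 4468 and 6582 CPM. Of 6 genes for the uptake of dying cells, Gas6 and Stab1 were lower and 0 higher (median 0.03), with the receptor Axl at 114 and 179.7 CPM. Among 12 dissociation and stress genes 1 was higher, Hsp90aa1 at 176 and 356 CPM, and 1 lower, Hspa1a at 176 and 80.3 CPM (median -0.21), and Fos stood at 658 and 734 CPM. Of the cell cycle list only Pcna passed the level filter, at 61.4 and 143 CPM, and Mki67 had 4 and 6 UMIs.

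Lists for other cell types gave low or uneven sums in the members. Neutrophil genes summed to 7207 and 484 CPM, control first, and NK genes to 1132 and 53.5 CPM, with most control UMIs in the single cells described above. B cell genes summed to 544 and 256 CPM, T cell genes to 70.2 and 66.9 CPM, and erythroid genes to 123 and 7.65 CPM. Adipocyte genes, which could arrive as free RNA from the digested fat, summed to 8.78 and 3.82 CPM with 8 of 9 at 0 in each library, and endothelial genes to 0 and 15.3 CPM. Their part in the differences between libraries was not tested.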

How the data were processed

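Single-cell 3′ RNA libraries (10x Genomics, v3.1) of CD45+ cells were sequenced by the authors, and the deposited matrices hold raw UMI counts per gene and barcode, made with Cell Ranger 4.0.0 per the file headers on mm10 per the labels. Counts were read as deposited, and cells were grouped only by library and by the stated UMI limits. A limit of 2% mitochondrial UMIs, the value the study states, left 1306 control and 889 Adipo Δ/Δ barcodes here, well below the cell numbers that the study states, so it does not give back the study's cell set. A limit of 10% was used and 2% tried as a stricter one. Counts were summed over the cells of each group and given as CPM with exact Poisson 95% intervals; ratios have conditional binomial intervals and shares Clopper-Pearson intervals, in Python 3.11.15 with SciPy 1.17.1. A gene was called past 2-fold with a mean of at least 100 CPM, and a group at 0 was set to 3 UMIs. Named genes were the 12 a side between libraries and the 10 a side over monocytes with the interval bound furthest from 1, leaving out ribosomal and rule genes, with the genes of 28 lists. Members and lists were chosen with earlier results of these data known. No doublet caller was run; cells over 3 times the median UMIs were left out as an alternative. The code was tested on simulated data for the library comparison: of 1224 genes, 200 were changed 4-fold, 78% of these were called and 0.661% of the others. The simulated counts had no spread between cells, mixed cells or free RNA, so these rates do not carry over to the members. No column belonged to another sample. Some results are not reported here.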

Additional observations from a re-analysis of the deposited data

How the results depend on the processing

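No paired analysis was possible because each condition was 1 library. The share ratio lay between 2.51 and 4.79 over all alternatives. The control share was 1.01% with at least 10 C1q UMIs and 2.74% over cells without Cd3e, Cd79a or Nkg7 UMIs. The Adipo Δ/Δ share was 2.53% and 9.63% in these 2 settings, 6.11% and 3.82% at mitochondrial limits of 5% and 2%, 4.32% with at least 4 C1q UMIs, 4.56% with at least 30 class II UMIs and 4.91% in cells of 2000 to 20000 UMIs. The ratio was 2.77 at the 2% limit and 2.51 with at least 10 C1q UMIs.

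Between libraries, 99 genes were higher and 87 lower at the 2% limit, 195 and 161 at 50 CPM, 893 and 1568 with no level filter, and 110 and 73 with at least 10 C1q UMIs. Scaling without ribosomal, mitochondrial and rule genes gave 109 higher, median-of-ratios scaling 38 higher, cells of 2000 to 20000 UMIs 79 lower, and scaling without Gm42418 and Lars2 69 lower. Over monocytes, the counts were 43 higher and 44 lower at the 2% limit, 126 and 137 at 50 CPM, and 436 and 264 with no level filter, and median-of-ratios scaling gave 42 lower. Of the list medians, that of the resident list was -0.84 and that of the matrix list 1.33 with cells weighted equally, and that of the monocyte genes 0.13 without Gm42418 and Lars2.

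Ratios changed direction for Plin2 (0.937 at the 2% limit), Nkg7 (2.66 with Ly6c2 and Vcan at 0 UMIs, 2.25 without the cells with neutrophil or NK transcripts), AW112010 (1.18) and Ccl5 (2.54) without those cells, and Ccl5 (2.15) with at least 10 C1q UMIs. Fewer cells, and so fewer UMIs, enter at stricter limits, and the other causes were not tested. The settings with at least 10 C1q UMIs, without mixed cells or without Gm42418 and Lars2 were chosen after seeing the data. Control members held 113920 UMIs in all, so a gene at 100 CPM rests on about 11 of them, and intervals cover counting error only.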

Other observations

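Resident-marker macrophages of the same library, chosen by at least 2 UMIs of Folr2, Lyve1 and Cd209f, were compared too. Against them the summed levels of the members lay toward the monocytes in several genes. Ccr2 stood at 895 and 906 CPM in members, 1677 and 1281 CPM in monocytes and 436 and 342 CPM in resident-marker cells, control first in each pair, and Plac8 at 1141 and 740.02 CPM, 3577 and 4542 CPM and 175 and 67.7 CPM. Lyz2 followed the same order with 11596 and 12039 CPM, 29824 and 28105 CPM and 5017 and 7995 CPM. Few members carried Plac8, 11 of 42 in control, where 1 cell held 61 of the 97 UMIs of the middle C1q class. In the Adipo Δ/Δ classes of rising C1q it was carried by 11 of 60, 4 of 36 and 9 of 51 cells. In the opposite direction, Retnla stood at 1159 and 1704 CPM in members and 9453 and 8157 CPM in resident-marker cells. Clec10a, a galactose-type lectin, stood at 105 and 91.8 CPM and 1171 and 519 CPM. Adipo Δ/Δ B cells held 1144 CPM of Retnla, and the part of free RNA in its member level was not tested. The summed member levels were thus between the other 2 groups in these 5 genes in both libraries. For Axl, a receptor for dying cells, they were outside both, at 114 and 179.7 CPM. Monocytes held 8.27 and 37.2 CPM of Axl and resident-marker cells 21.8 and 68.8 CPM. A sum carried by few cells, as for Plac8, does not place single cells between groups. Ccr2, Plac8, Lyz2, Retnla, Clec10a and Axl were chosen after their values were seen.

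Genes of Ly6C low monocytes summed to 676 and 434 CPM in members, 669.9 and 633 CPM in monocytes and 313 and 343 CPM in resident-marker cells. Of the list, Nr4a1, which that subset needs, stood at 96.6 and 82.2 CPM in members and 187 and 124 CPM in monocytes, and the integrin Itgal at 132 and 80.3 CPM and 269.6 and 264 CPM. The 1 list gene measured between libraries did not pass 2-fold, and 1 of 2 measured against monocytes was lower in both.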
